A study of Macaca fascicularis with 2 samples.

Results

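BCL2-family genes decide whether a cell under stress keeps its mitochondria intact, and 10 genes of this machinery were followed here through the fetal monkey ovary: BCL2, BCL2L1, MCL1, BAX, BAK1, BID, BBC3, BCL2L11, PMAIP1 and APAF1. They were chosen by name. Of the 10, 9 have a row among the 18446 genes of the count table, and PMAIP1 (NOXA) has no value here. The cells came from whole ovaries of female fetuses of the cynomolgus monkey (Macaca fascicularis), 1 fetus at embryonic day 84 (E84) and 1 at E116, with no treatment named, and with both ovaries of a fetus digested enzymatically and sequenced as 1 droplet library of 3′ ends. Transcripts were counted as unique molecular identifiers (UMIs).

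In textbook terms, the guardians BCL2, BCL2L1 (BCL-XL) and MCL1 hold the effectors BAX and BAK1 in check. Proteins with only a BH3 domain, here BID, BBC3 (PUMA) and BCL2L11 (BIM), relay stress by engaging the guardians or the effectors. Once the effectors open the outer mitochondrial membrane, cytochrome c assembles with APAF1 into the apoptosome, which activates caspase 9. Most germ cells formed in a mammalian fetal ovary are lost before or around birth, many of them during meiotic prophase, and members of this family are known from mouse work to set how many oocytes remain.

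The table holds 20967 cells and 148824177 UMIs. The median cell had 3756 UMIs from 1569 genes. Barcodes end in 1 (10621 cells, median 3130 UMIs) or 2 (10346 cells, median 4555.5 UMIs), and no label ties an ending to a fetus or a stage. E84 and E116 were therefore not compared. Cells of both libraries were treated as a single pool, and values are also given within each ending. A difference between endings may mix library, fetus and stage, which cannot be told apart here. With no replicates, there is no test. Levels are summed UMIs of a group per 1000000 UMIs (CPM) with exact Poisson 95% intervals in square brackets, which cover counting error only. The 2 barcode sets share 27 barcode sequences, and a doublet caller marked 0 cells, so none was removed.

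Cells were clustered and named from marker genes, so any difference from the groups of the study may come from these rebuilt names. Of 6336 germ cell-like cells, 253 were mitotic-like (NANOG, SOX17 and related markers), 1251 premeiotic-like (STRA8, ZGLP1), 2025 meiotic-like (SYCP1, SPO11) and 675 oogenesis-like (FIGLA, GDF9), and 2132 got no step name. The 9 germ cell markers summed to 549 to 3138 CPM in the named steps and to 83.1 CPM in somatic cells. Somatic classes were granulosa-like (5331 cells), stroma-like (4568), ovarian surface epithelium-like (1260), endothelial-like (543), macrophage-like (247) and pericyte-like (136). The macrophage-like cluster is a mixed immune group: all 9 macrophage markers passed in it, but so did 8 lymphocyte markers (CD3D, CD3E, CD3G, CD2, IL7R, NKG7, GZMA and CD7), and its levels cannot be given to either cell type alone. The 744 erythroid-like cells, whose erythroid markers summed to 469645 CPM, served as a background for most genes. These markers fill much of the erythroid-like total and so lower the CPM of other genes there, which makes this background a low one. Depth differed widely, with median UMIs of 11839 in mitotic-like, 4218 in premeiotic-like, 1958 in meiotic-like and 2861 in oogenesis-like cells. Shares of cells with a UMI are therefore given after thinning each cell to 1000 UMIs, which left out 0, 26, 428 and 164 cells of these steps, 1278 of the 12085 somatic cells and 93 erythroid-like cells. Step and barcode ending overlap in part: 250 of the mitotic-like cells end in 1, and 653 of the oogenesis-like cells end in 2.

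The guardians divided the ovary into 2 patterns. BCL2 and MCL1 were low in every germ cell step and high in the somatic classes. BCL2L1 was highest in meiotic-like germ cells and, among the germ cell steps, lowest in oogenesis-like cells.

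BCL2 stood at 8.19 CPM [5.44, 11.8] in mitotic-like, 3.23 [2.21, 4.55] in premeiotic-like, 1.67 [0.956, 2.72] in meiotic-like and 1.90 [1.17, 2.90] in oogenesis-like cells. Its level was 37.1 CPM [34.8, 39.6] in granulosa-like, 34.4 [32.2, 36.8] in stroma-like, 39.5 [28.6, 53.2] in macrophage-like and 21.6 [17.8, 25.9] in endothelial-like cells. The last 3 germ cell steps lay at the level of the erythroid-like cells, 2.12 CPM [0.914, 4.17]. At 1000 UMIs a BCL2 UMI was found in 0.395%, 0.653%, 0.125% and 0% of the cells of the 4 steps (in the last, 0 of 511 cells, which allows up to 0.587%) against 3.41% of somatic and 0.154% of erythroid-like cells. Without thinning, the shares were 11.1%, 2.56%, 0.741% and 2.81%, against 14.9% of somatic cells. Among the 4 steps, BCL2 mRNA was thus above the erythroid-like level only in the mitotic-like cells by summed CPM, on 28 UMIs, and in none of them clearly so by thinned share. Because erythroid markers lower the erythroid-like CPM of other genes, this comparison cannot place the mitotic-like cells above background.

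MCL1, a guardian with a short-lived protein, was also low in germ cells. Summed MCL1 was 16.4 CPM [12.4, 21.3], 13.2 [11, 15.7], 15.1 [12.7, 17.7] and 7.40 [5.89, 9.19] through the germ cell steps. Granulosa-like cells had 133 CPM [129, 138] and stroma-like cells 120 [116, 125], and ovarian surface epithelium-like cells were the lowest somatic class with 61.4 [57.4, 65.7]. No somatic interval reached a germ cell interval. At 1000 UMIs, 9.41% of somatic cells carried an MCL1 UMI, against 0.980% to 1.76% in the 4 steps and 0.154% in erythroid-like cells. By summed level the oogenesis-like cells were not apart from erythroid-like cells (6.09 CPM [3.86, 9.13]).

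The somatic level of MCL1 was not even. Within granulosa-like cells it was 186 CPM in ending 1 and 47.0 in ending 2. By cluster it was 196 CPM in the cluster that holds most granulosa-like cells of ending 1 (2082 of 3060), and 42.3, 54.4 and 51.2 CPM in the other 3 granulosa-like clusters. Mitochondrial UMIs made up a median of 49.7% in the cluster with 42.3 CPM. Per 1000000 nuclear UMIs the 4 levels were 219, 92.2, 61.3 and 60.8. The summed level of 7 immediate early genes, which mark a recent stimulus or the handling of the tissue (FOS, FOSB, JUNB, EGR1, ATF3, IER2 and DUSP1, chosen after their values were seen), was also highest in that cluster, at 9694 CPM, with 1903, 2799 and 3838 CPM in the other 3. Elsewhere the order held in some comparisons and differed in others. Among germ cell sub-clusters, those with the most early genes (3574 and 1452 CPM) also had the most MCL1 (49.0 and 35.2 CPM). Stroma-like cells had more of these genes than granulosa-like cells (13202 against 6892 CPM) with less MCL1, and within stroma-like cells MCL1 was 147 and 107 CPM in the endings with 12960 and 13320 CPM of early genes. In the germ cell steps these genes summed to 265 to 539 CPM, against 9005 CPM in the somatic classes together. Their part in the MCL1 difference was not tested.

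BCL2L1 ran another course. It stood at 66.4 CPM [58.0, 75.6] in mitotic-like, 46.4 [42.2, 50.8] in premeiotic-like, 84.3 [78.6, 90.3] in meiotic-like and 22.3 [19.6, 25.3] in oogenesis-like cells. The meiotic-like cells were above every other group, and oogenesis-like cells were the lowest group, narrowly below stroma-like cells with 26.1 CPM [24.1, 28.1] (log2 ratio of stroma-like over oogenesis-like 0.23 [0.01, 0.44]). The other somatic classes lay between 33.7 and 49.3 CPM. At 1000 UMIs the share of cells with a BCL2L1 UMI was 7.51%, 4.08%, 7.76% and 0.783% (4 of 511 cells) through the steps and 2.91% in somatic cells, the same order as the summed levels. After thinning to 2000 UMIs the order held, with a smaller gap to the last step: 11.6%, 8.94%, 13.6% and 4.46%, and 5.90% in somatic cells. The unthinned shares were 55.3%, 25.3%, 22.9% and 21.9%.

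Meiotic-like cells of both endings had more BCL2L1 than premeiotic-like cells of the same ending, at 100 against 46.7 CPM in ending 1 and 68.1 against 46.0 CPM in ending 2. Meiotic-like sub-clusters were not alike: 2 of them had 89.9 and 90.7 CPM, while the shallowest, with a median of 1075 UMIs and 26.2% of its UMIs from mitochondrial genes, had 37.3 CPM. Erythroid-like cells also held BCL2L1, at 51.3 CPM [44.4, 59.1]. Globin and other erythroid markers summed to 1876 CPM in meiotic-like cells with 6 of 7 markers seen.

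**Figure D1:**
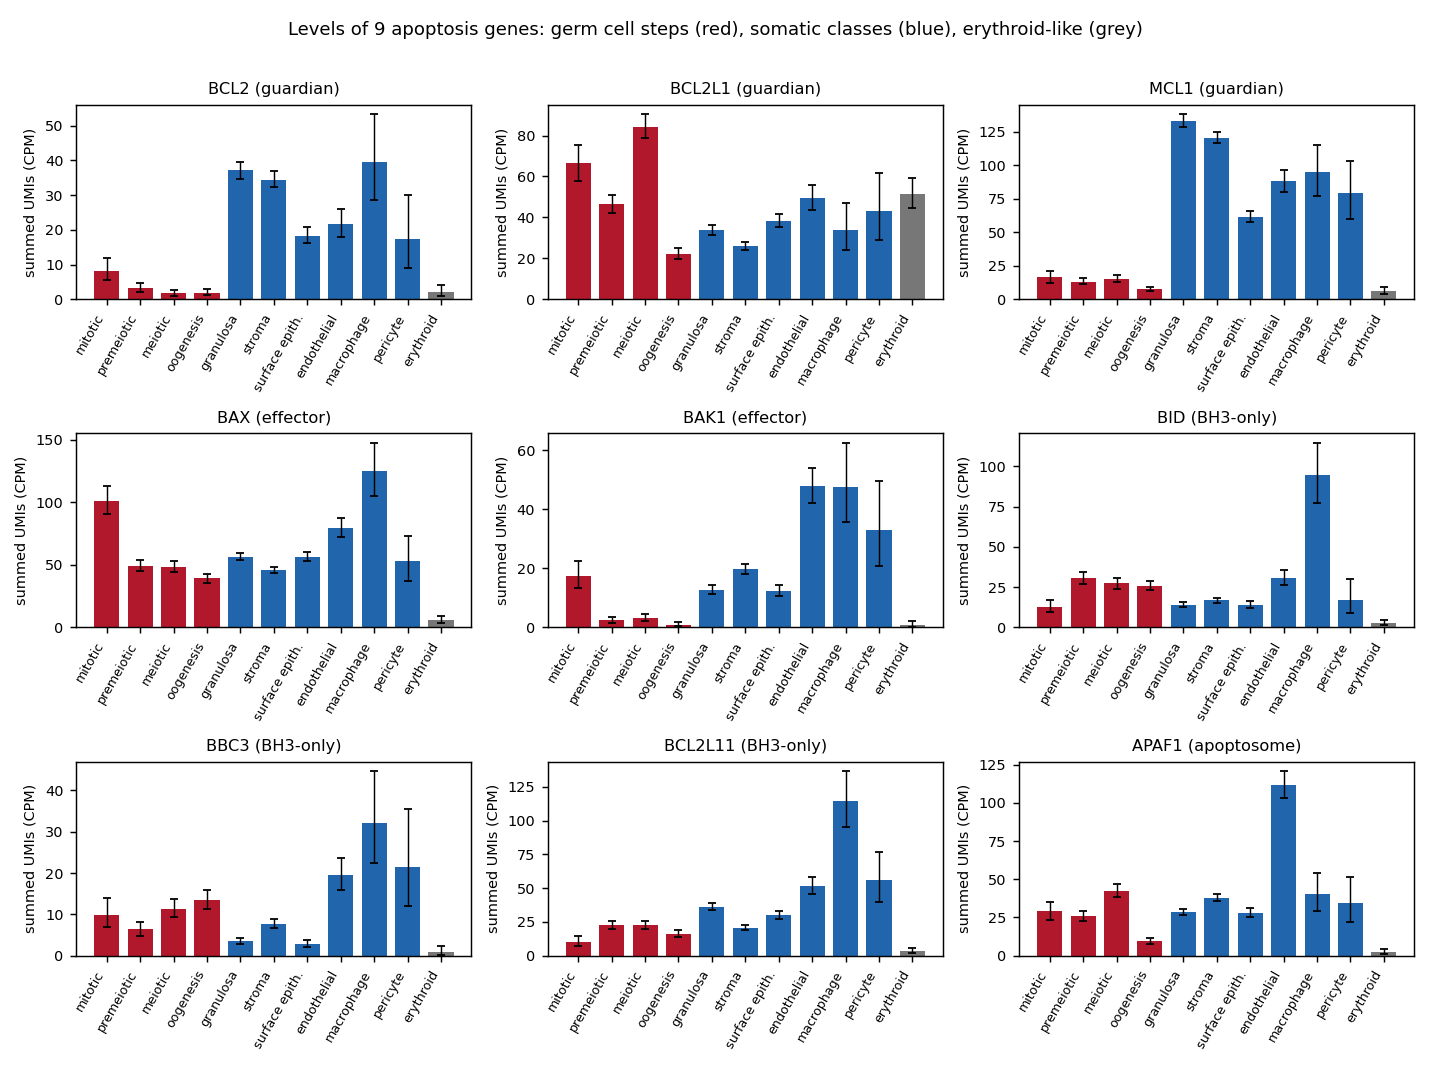
Summed UMIs in CPM (y axis) of the 9 measured genes in 4 germ cell steps (red), 6 somatic classes (blue) and erythroid-like cells (grey), with exact Poisson 95% intervals as error bars and a scale of its own for each gene. BCL2 and MCL1 bars are short in all red groups, BCL2L1 peaks at 84.3 CPM in meiotic-like cells, and APAF1 reaches 112 CPM in endothelial-like cells.

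The effectors also parted. BAX, which moves from the cytosol to mitochondria when activated, was present in every germ cell step. Its level was 101 CPM [91.1, 113] in mitotic-like, 49.4 [45.1, 54.0] in premeiotic-like, 48.6 [44.3, 53.3] in meiotic-like and 39.3 [35.7, 43.1] in oogenesis-like cells. Somatic classes ranged from 45.8 CPM in stroma-like to 125 CPM [105, 148] in macrophage-like cells, and erythroid-like cells had 5.82 CPM. Premeiotic-like and meiotic-like cells lay within the range of the somatic classes, and mitotic-like cells stood 2.58-fold above oogenesis-like cells (log2 ratio of oogenesis-like over mitotic-like −1.37 [−1.58, −1.16]). That contrast sets cells of ending 1 against cells of ending 2, so step and ending cannot be told apart in it. The 22 oogenesis-like cells of ending 1 gave −0.03 against the mitotic-like cells of the same ending. At 1000 UMIs, 9.09%, 4.49%, 4.45% and 4.31% of the cells of the steps had a BAX UMI, against 5.22% of somatic cells.

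BAK1, the effector that sits on mitochondria in healthy cells, was low in every step after the mitotic-like one. It had 17.5 CPM [13.4, 22.6] in mitotic-like cells, within the somatic range, and 2.52 [1.63, 3.72], 3.24 [2.20, 4.60] and 0.993 [0.496, 1.78] CPM in the steps that follow. The erythroid-like level was 0.794 CPM [0.164, 2.32], from which the oogenesis-like level was not apart. Endothelial-like and macrophage-like cells were highest, each with 47.8 CPM, followed by pericyte-like cells with 33.0. Thinned shares were 1.58%, 0.245%, 0.376% and 0.196% through the steps and 1.55% in somatic cells. Within ending 1, which holds nearly all mitotic-like cells, BAK1 was at 17.5 CPM in mitotic-like and 3.80 in premeiotic-like cells. Over both endings premeiotic-like cells held 6.96-fold less BAK1 (log2 ratio −2.80 [−3.53, −2.10]), the largest ratio of any measured member between successive steps.

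Of the BH3-only genes, BID (cut and activated by caspase 8) and BCL2L11 were lowest in mitotic-like cells among the steps. The BID level was 12.9 CPM [9.35, 17.3] for mitotic-like cells against 30.5 [27.2, 34.2], 27.4 [24.2, 30.9] and 25.9 [23.0, 29.1] CPM in premeiotic-like, meiotic-like and oogenesis-like cells. Neighbours among the last 3 values were not apart, and all 3 lay above granulosa-like, stroma-like and surface epithelium-like cells (14.1, 16.8 and 14.1 CPM). Endothelial-like cells had a similar 30.9 CPM, and macrophage-like cells, with 94.6 [77.2, 115], were apart from every other group. At 1000 UMIs a BID UMI was seen in 0.395%, 3.27%, 3.57% and 2.35% of cells through the steps.

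BCL2L11 had 10.2 CPM [7.13, 14.2] in mitotic-like cells, 22.6 in both premeiotic-like [19.7, 25.7] and meiotic-like cells [19.7, 25.8], and 16.3 [14, 18.9] in oogenesis-like cells. Macrophage-like cells reached 115 CPM [95.6, 137], and granulosa-like cells 36.4 [34.0, 38.9] (47.5 in ending 1, 18.4 in ending 2). The step from mitotic-like to premeiotic-like depended on cell depth: the log2 ratio was 1.54 among cells over 3000 genes and −0.17 among cells of up to 3000 genes.

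BBC3, a p53 target and with NOXA a mediator of oocyte death after DNA damage in mice, was a rare transcript. It measured 9.94 CPM [6.89, 13.9], 6.35 [4.88, 8.12], 11.3 [9.26, 13.6] and 13.5 [11.4, 15.8] through the steps, against 3.48 CPM in granulosa-like and 32.1 [22.4, 44.7] in macrophage-like cells. The meiotic-like level differed by ending, 5.60 CPM in ending 1 and 17.1 in ending 2, and the ratio to premeiotic-like cells changed sign with it (log2 −0.36 and 1.67). Among meiotic-like sub-clusters the one made mostly of ending 1 had 2.97 CPM, and the others 16.4 and 14.9. No direction for BBC3 at entry into meiosis can be read from these libraries.

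APAF1 was highest of the germ cell steps in meiotic-like cells. Its level was 29.0 CPM [23.5, 35.2], 25.8 [22.7, 29.2], 42.4 [38.3, 46.7] and 9.39 [7.67, 11.4] in mitotic-like, premeiotic-like, meiotic-like and oogenesis-like cells. Meiotic-like cells were 1.64-fold above premeiotic-like cells (log2 0.71 [0.49, 0.95]), with log2 ratios of 0.71 and 0.73 in the endings. Not all meiotic-like cells shared this: their shallowest sub-cluster had 23.6 CPM, and the others 36.7 and 49.3. In ending 2, meiotic-like and premeiotic-like cells had 20.2 and 21.8 CPM up to 3000 genes, and 45.4 and 23.4 over 3000 genes. Oogenesis-like cells were 4.51-fold below meiotic-like cells (log2 −2.17 [−2.50, −1.86]), −2.12 in ending 2, which holds nearly all of them. At 1000 UMIs, 4.35%, 1.63%, 3.26% and 0.978% of cells had an APAF1 UMI, and 0 of 651 erythroid-like cells, which allows up to 0.461%. At this depth the mitotic-like share, on 11 of 253 cells, was thus no lower than the meiotic-like one. After thinning to 2000 UMIs instead, it was lower, at 4.40% against 6.90%. Over all groups APAF1 was highest in endothelial-like cells, at 112 CPM [103, 121], and stroma-like cells had 37.9 CPM.

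**Figure D2:**
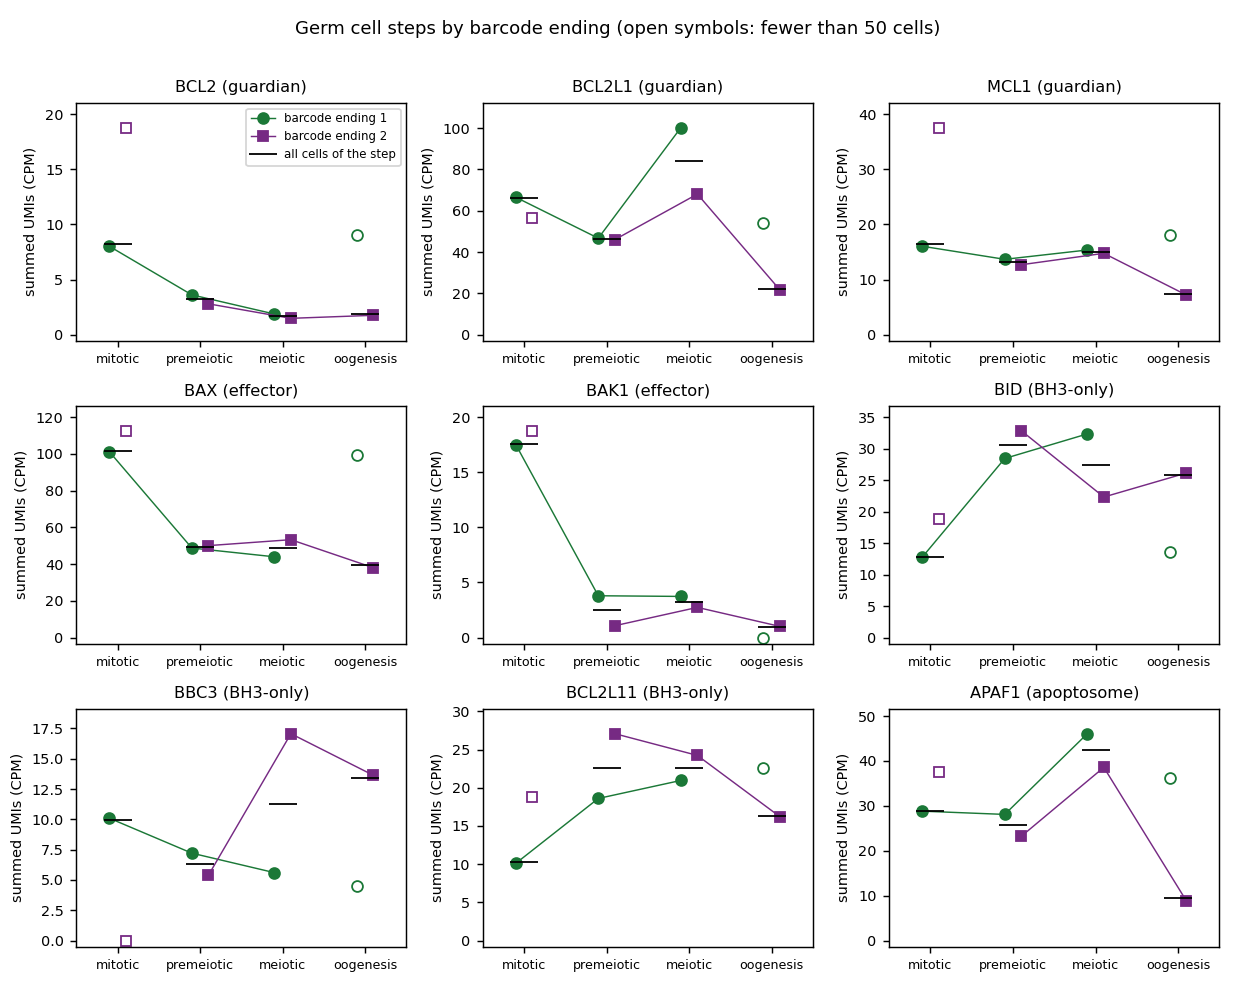
Summed UMIs in CPM (y axis) of each gene in the 4 germ cell steps (x axis), for barcode ending 1 (green circles), ending 2 (purple squares) and all cells of the step (black bars); open symbols rest on fewer than 50 cells. BCL2L1 and APAF1 are higher in meiotic-like than in premeiotic-like cells in both endings, while BBC3 goes opposite ways (5.60 against 17.1 CPM in meiotic-like cells).

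Called by a 2-fold difference of CPM with at least 50 UMIs in the groups together, 3 of the 9 measured members (BCL2, MCL1 and BAK1) were lower in germ cell-like than in somatic cells, where 21.7% of 14956 genes were, and 0 were higher, where 23.6% were. The folds were 4.42 for BCL2 (log2 −2.14 [−2.31, −1.98]), 5.11 for MCL1 (−2.35 [−2.45, −2.26]) and 3.51 for BAK1 (−1.81 [−2.0, −1.62]). BCL2L1 (0.57) and BID (0.54) had ratios above 0 that did not reach 2-fold. A sub-cluster of 527 deep germ cell-like cells without a step, with granulosa marker UMIs at 847 CPM against 124 in meiotic-like cells, carried 63.3% of the BCL2, 54.5% of the MCL1 and 43.2% of the BAK1 UMIs of all germ cell-like cells, with 23.9% of their UMIs in total. Its part in the levels was not tested beyond leaving it out with the other cells without a step, which gave log2 ratios of −3.45, −3.18 and −2.32.

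Between steps, the same calls were made for each transition. From mitotic-like to premeiotic-like cells, 3 of 9 (BCL2, BAX and BAK1) were at least 2-fold lower, against 10.0% of 10327 genes, and 2 (BID and BCL2L11) at least 2-fold higher, against 21.8%. BAX passed narrowly, at 2.05-fold. Nearly all mitotic-like cells are of ending 1, and within ending 1 BCL2L11 was under 2-fold (log2 0.88 [0.30, 1.49]), while the log2 ratios of BCL2 (−1.15), BAX (−1.05), BAK1 (−2.21) and BID (1.16) were past it. From premeiotic-like to meiotic-like cells, 0 of 8 tested members were past 2-fold in either direction, with 13.6% of 11174 genes higher and 12.3% lower, and BCL2L1 came nearest at 1.82-fold (log2 0.86 [0.70, 1.03]). From meiotic-like to oogenesis-like cells, 3 of 7 (BCL2L1, MCL1 and APAF1) were lower, against 23.8% of 11344 genes, and 0 higher, against 17.0%. BCL2L1 differed 3.78-fold there (log2 −1.92 [−2.13, −1.71]) and MCL1 2.03-fold. The median log2 ratio of the tested members was −0.41, −0.52, 0.28 and −0.47 in the 4 contrasts, and that of all tested genes 0.09, 0.31, 0.03 and −0.20. BCL2 from premeiotic-like onward and BAK1 at the last step had too few UMIs to be tested. Mitochondrial UMIs made up 7.42% of all UMIs in mitotic-like cells and 20.5% in oogenesis-like cells, and leaving them out of the total put BAX (premeiotic-like over mitotic-like) and MCL1 (oogenesis-like over meiotic-like) under 2-fold.

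Levels of different genes are not comparable in counts of 3′ ends, but the ratio of a pair can be followed from group to group. BCL2L1 UMIs per BAX UMI were 0.65 [0.55, 0.78] in mitotic-like, 0.94 [0.82, 1.07] in premeiotic-like, 1.73 [1.54, 1.95] in meiotic-like and 0.57 [0.48, 0.67] in oogenesis-like cells. Each of the 6 somatic classes lay between 0.27 and 0.81. The meiotic-like ratio was above the premeiotic-like one in both endings, at 2.28 against 0.96 in ending 1 and 1.28 against 0.92 in ending 2. Meiotic-like cells of up to and over 3000 genes had 1.62 and 1.80. Erythroid-like cells, in which BCL-XL is known to keep maturing red cells alive, had 8.82 [5.66, 14.4].

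MCL1 told the somatic cells apart instead. There were 0.16, 0.27, 0.31 and 0.19 MCL1 UMIs per BAX UMI in the germ cell steps, and 2.35 in granulosa-like and 2.63 in stroma-like cells. Within ending 2 the granulosa-like ratio was 0.84, still above the germ cell steps. Of the UMIs of the 3 measured guardians, BCL2L1 supplied 73.0%, 73.8%, 83.4% and 70.6% through the steps but 19.1% in somatic cells, where MCL1 supplied 63.1%. As counts of different genes are not comparable, these shares and the sums by role below are followed only from group to group.

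Summed by role, guardian UMIs per effector UMI were 0.76 [0.66, 0.89], 1.21 [1.07, 1.36], 1.95 [1.75, 2.17] and 0.78 [0.68, 0.91] through the steps and 2.35 [2.27, 2.42] in somatic cells. The meiotic-like ratio was 2.46 in ending 1 and 1.5 in ending 2, above the premeiotic-like 1.22 and 1.20. UMIs of the 3 BH3-only genes per guardian UMI were 0.36 in mitotic-like, 0.95 in premeiotic-like, 0.61 in meiotic-like and 1.76 [1.54, 2.02] in oogenesis-like cells. In the 22 oogenesis-like cells of ending 1 the ratio was 0.50. Among somatic classes macrophage-like cells came nearest to the value of all oogenesis-like cells, with 1.44 [1.19, 1.75]. The guardian sum holds BCL2, BCL2L1 and MCL1 only. It leaves out BCL2A1, a guardian that was highest in the macrophage-like cluster, so the ratio does not show that guardians were scarce there. BCL2L2 and BCL2L10, also of the BCL2 family, have no row and could not be counted in any group. The ratios of the oogenesis-like cells therefore do not show scarce guardians either.

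**Figure D3:**
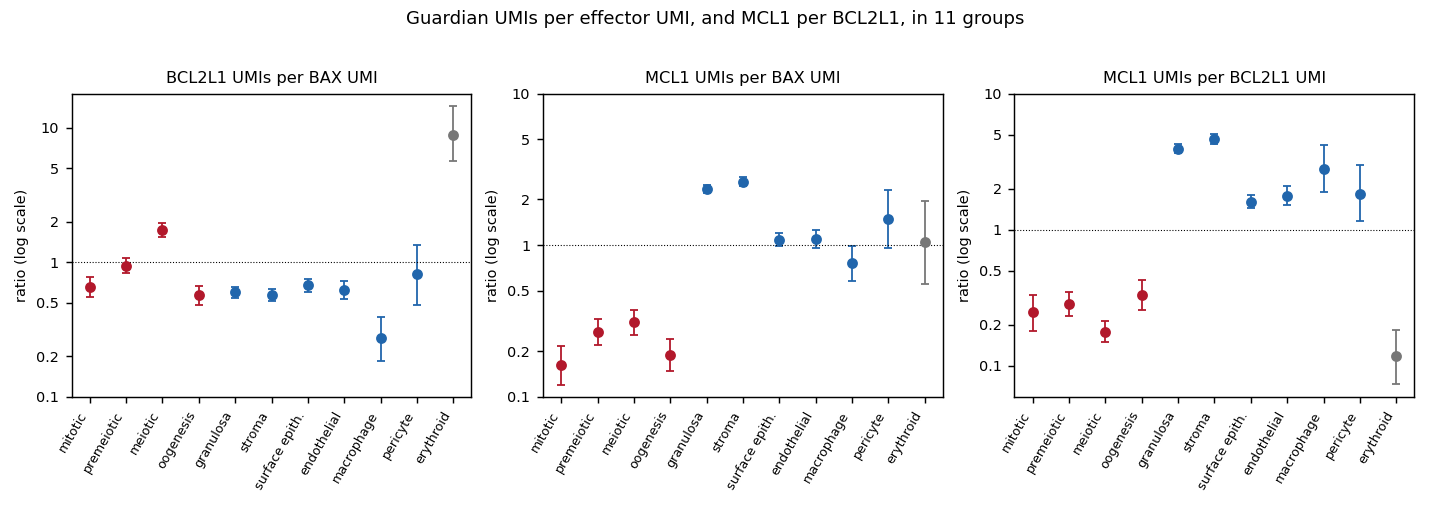
UMIs of a gene per UMI of another (y axis, log scale) in 11 groups with exact 95% intervals: BCL2L1 per BAX, MCL1 per BAX and MCL1 per BCL2L1, germ cell steps in red, somatic classes in blue and erythroid-like cells in grey. BCL2L1 per BAX is 1.73 in meiotic-like and 0.57 in oogenesis-like cells, and MCL1 per BCL2L1 lies below 1 in all 4 steps and above 1 in all 6 somatic classes.

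Ranked over the 11 groups, neighbours were often not apart: of 10 neighbouring pairs, the interval of the ratio left out equality in 2 for BCL2, 3 for BID, BBC3 and APAF1, 4 for BCL2L1, MCL1 and BAK1, 5 for BAX and 7 for BCL2L11. The mixed macrophage-like cluster ranked highest for BCL2, BAX, BID, BBC3 and BCL2L11, though for BCL2 and BBC3 not apart from the class ranked next (granulosa-like and pericyte-like). Among the germ cell steps, the widest ranges (highest over lowest, 10 CPM added) were those of BCL2L1 (2.92), APAF1 (2.70) and BAK1 (2.51), and the narrowest that of BBC3 (1.43). For these 3 genes, among the 5 most similar genes over the 11 groups, those with a symbol and the highest correlation were CFAP300 (r = 0.77) and SLC4A8 (0.76) for BCL2L1, IL18BP (0.94) and OSER1 (0.94) for APAF1, and PXDC1 (0.98) and VASP (0.96) for BAK1. These are Pearson correlations of log2(CPM + 10) over 11 groups of the same libraries, given as a description.

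Around the members, a list of 46 other genes of the cell death machinery was followed, of which 40 have a row. Between germ cell-like and somatic cells 9 of 40 were at least 2-fold higher and 12 lower, beside the 23.6% and 21.7% of all genes. The death receptor list, which passes signals from outside the cell, was the most one-sided, with 0 of 7 higher and 5 of 7 lower (FASLG, TNFRSF1A, TNFRSF10A, TNFRSF10B and CFLAR, the last an inhibitor of caspase 8). From mitotic-like to premeiotic-like cells 7 of 31 tested genes were higher and 10 lower, beside 21.8% and 10.0% of all genes. From there to meiotic-like cells 2 of 30 were higher and 6 lower, beside 13.6% and 12.3%. From meiotic-like to oogenesis-like cells 6 of 31 were higher and 3 lower, beside 17.0% and 23.8%.

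Among the genes with the widest range over the steps, TP63, the p53 relative that guards the oocyte genome, was the widest, at 1.17, 6.55, 4.81 and 66.0 CPM in mitotic-like, premeiotic-like, meiotic-like and oogenesis-like cells against 0.790 in somatic cells. CASP9, the partner of APAF1, was highest in mitotic-like cells (42.1 CPM) and stood at 12.8, 15.8 and 13 CPM in the later steps. CASP6 was at 43.0 CPM in premeiotic-like and 10.9 in meiotic-like cells.

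VDAC1, VDAC2 and VDAC3, the channels of the outer mitochondrial membrane, were all lowest in mitotic-like cells. VDAC1 had 43.9, 123, 191 and 243 CPM through the steps, whereas VDAC2 (342 CPM) and VDAC3 (506 CPM) peaked in meiotic-like cells. BOK, an effector-like relative of BAX, had 26.9 CPM in mitotic-like, 3.45 in meiotic-like and 20.1 in oogenesis-like cells. BCL2L15, another relative, was at 32.2 CPM in the mitotic-like step and did not exceed 1.21 in the other 3. BIRC5 (survivin), which also serves in cell division, was highest in meiotic-like cells with 68.3 CPM, 106 in ending 1 and 29.7 in ending 2. CHEK2, the kinase that links DNA damage to TP63 in mouse oocytes, was highest in premeiotic-like cells with 29.3 CPM and had 6.77 in oogenesis-like cells.

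The oogenesis-like cells also held markers of other classes. Endothelial markers summed to 742 CPM (8 of 9 with a UMI, CLDN5 at 0), against 191 CPM in meiotic-like cells. Macrophage markers summed to 349 CPM (8 of 9, C1QA at 0), against 17.7 CPM. These sums need not mean that whole marker lists were raised. In the cluster led by oogenesis markers (731 cells), VWF was the only endothelial marker that passed. With the highest doublet scores removed, CSF1R, a macrophage marker, was among the leading genes of an oogenesis-like sub-cluster of 248 cells. How much of the sums VWF and CSF1R supply was not tested. The part of these markers in the values of this step was not tested either.

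**Figure D4:**
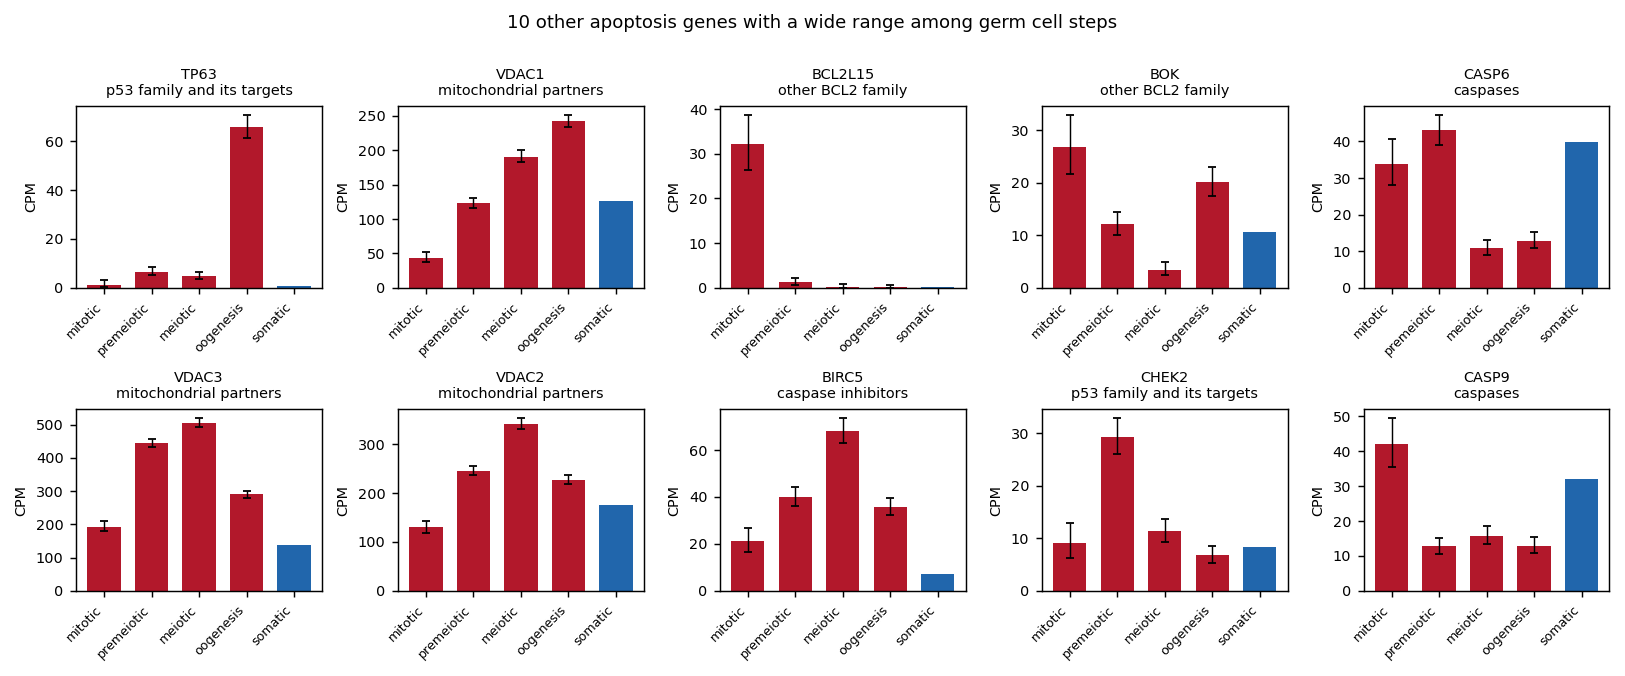
Summed UMIs in CPM (y axis) of 10 other cell death genes in the 4 germ cell steps (red, with exact Poisson 95% intervals) and in the somatic classes together (blue, no interval drawn). TP63 is highest in oogenesis-like cells (66.0 CPM), VDAC3 peaks in meiotic-like cells at 506 CPM, and BCL2L15 reaches 32.2 CPM in mitotic-like cells.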

How the data were processed

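Single cells of whole fetal ovaries were measured with the 10x Genomics 3′ kit (v3), 1 library at E84 and 1 at E116. The authors mapped reads to Macaca_fascicularis_5.0 and counted UMIs with Cell Ranger 3.0.2, and imported the counts into Seurat. What they deposited is 1 table of raw UMI counts, genes by cells. All 20967 cells of the table were used. The Methods limit cells to 200 to 3000 genes, which leaves 16292 of them, a number that differs from the cell number the Methods give.

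Cells were normalized and clustered with Seurat 5.3.0 under R 4.3.3 (2000 variable genes, 18 components, 20 neighbours, resolution 0.6), giving 20 clusters and, among germ cells, 12 sub-clusters. A name needed 3 markers at least 1.5 times higher than in other cells and in 5% of cells. Clusters 8 and 10 (1009 and 793 cells, nearly all of ending 2) stayed unnamed. Scrublet in scanpy 1.11.5 called 0 doublets.

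Levels, intervals and thinning were computed with scipy 1.17.1, numpy 2.4.6 and pandas 2.3.3 under Python 3.11.15, and plotted with matplotlib 3.10.9. Ratios have exact conditional binomial intervals, shares exact binomial ones, all at 95%, and the limit at a count of 0 is 3 counts. The interval and thinning steps were tested on simulated data. A ratio was read where a gene had at least 50 UMIs, and called at 2-fold. UMIs of a group ranged from 696268 (pericyte-like) to 25169733 (stroma-like), which sets the widths of the intervals.

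The members and lists were chosen with earlier results of these data known. Named are all members, the 12 other cell death genes with the widest range over steps (10 CPM added, at least 50 germ cell UMIs), of which 2 are not reported here, and genes most like the 3 members of widest range (at least 500 UMIs, the first 5 considered, those with symbols printed in part). Alternatives were 200 to 3000 genes, at most 10% mitochondrial UMIs, resolution 1.0, 30 components, mean single-cell CPM, thinning to 1000 UMIs and removal of the 8% highest doublet scores. The nuclear total without 13 mitochondrial genes, cells over 3000 genes and germ cells of the 4 named steps were added after seeing the data. Stage contrasts were not made, and no sequences or coordinates are given.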

Additional observations from a re-analysis of the deposited data

How the results depend on the processing

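The 3 members lower in germ cell-like than in somatic cells were past 2-fold under every alternative run. The median log2 ratio of the members in that contrast (10 CPM added) was −0.30, and moved to −0.48 at 10% mitochondrial UMIs, −0.41 at resolution 1.0, −0.43 with 30 components, −0.16 with the mean of single-cell CPM and −0.45 with the 4 named steps alone. The count from mitotic-like to premeiotic-like was 5, and 3 with the mean of single-cell CPM. The count from premeiotic-like to meiotic-like, 0 as reported, was 1 at 200 to 3000 genes (BCL2L1), 1 with 30 components (BBC3) and 3 at 10% mitochondrial UMIs (BCL2L1, BBC3, APAF1). The count from meiotic-like to oogenesis-like was 2 to 4. For APAF1, the log2 ratio of meiotic-like to all other germ cells was 0.90, and 0.55 at 200 to 3000 genes, 1.16 at 10% mitochondrial UMIs, 1.09 with 30 components, 0.37 with mean CPM, 0.63 thinned, 1.11 in cells over 3000 genes and 1.17 against the named steps. BAX in oogenesis-like over mitotic-like cells, −1.37, was −1.64 at 200 to 3000 genes, −1.16 with mean CPM, −1.58 without the highest doublet scores and −1.15 with nuclear UMIs. Single ratios reversed in 3 cases: BCL2 in premeiotic-like over mitotic-like cells (0.72 thinned), BCL2L11 in the same contrast (−0.13 at 200 to 3000 genes) and MCL1 in oogenesis-like over meiotic-like cells (0.11 thinned). The thinned mitotic-like BCL2 share rested on 1 of 253 cells. At 2000 UMIs neither thinned reversal held. BCL2 shares were then 1.20% of mitotic-like against 0.736% of premeiotic-like cells. MCL1 shares were 1.57% of oogenesis-like against 2.60% of meiotic-like cells. The cause of these shifts was not tested. Of 102 values of the 11 called ratios, 99 kept their direction and 89 were also past 2-fold. No paired analysis was possible because each stage has 1 library. No value covers the spread between fetuses, and thinned shares of the rarer genes rest on few cells.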

Other observations

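Outside the germ cells, the macrophage-like cluster, in which lymphocyte markers also passed, held the highest level of several other cell death genes of the list. BCL2A1, an NF-kB-induced guardian, was at 282 CPM there, BIRC3, an inhibitor of apoptosis also induced by NF-kB, at 243 CPM, and FASLG, the ligand of the death receptor FAS, at 56.0 CPM. FASLG is known from lymphocytes, and 8 lymphocyte markers passed in this cluster. Endothelial-like cells were highest for TNFRSF1A (123 CPM), CFLAR (39.1 CPM), TNFRSF10B (36.5 CPM) and TNFRSF10A (27.4 CPM), besides APAF1 and BAK1. Pericyte-like cells were highest for CDKN1A, a p53 target that halts the cell cycle, at 171 CPM. These are levels of 247, 543 and 136 cells, with no replicate.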
